A study of Mus musculus with 11 samples.

Results

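The genes described here are a list of 10 islet macrophage genes, namely *Csf1r*, *Csf2rb*, *Csf2rb2*, *Spic*, *Adgre1*, *Itgax*, *Mrc1*, *Cd68*, *Lyz2* and *C1qa*. They were found by their symbols among the 55536 genes of each table. They were measured by bulk RNA-seq of pancreatic islets from wild type C57BL/6J female mice, which entered the study at 9 weeks of age. Multipara mice had 3 consecutive pregnancies and were studied 3 weeks after the last delivery, and their littermates that were never mated served as virgin controls. S-961, a peptide antagonist of the insulin receptor, was given at 100 nmol/kg 2 times a day for 3 days. There were 3 virgin and 4 multipara libraries with S-961, and 2 virgin and 2 multipara libraries without treatment. The labels do not say whether a library came from 1 mouse or a pool. For the S-961 data the paper's figure legend gives 3 virgin and 4 multiparous mice, the same numbers as the libraries. The p-values measure the spread between these samples, which may be technical where libraries are not separate mice.

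Macrophages are the main resident immune cells of the islet, where they lie close to blood vessels and β cells. They depend on signals through the receptor for M-CSF, and GM-CSF and related cytokines act on them through receptors that share a common β chain. They take up dying cells and debris, degrade them in lysosomes, and are a major local source of the complement component C1q.

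The total count per library ran from 22028507 to 32234146, and all 10 genes had reads in all 11 libraries. Levels are given as CPM, that is counts scaled to library size, after TMM normalization of all libraries together. With S-961, *Ins1* and *Ins2* took 13.2 to 20.7% of counts, against 35.3 to 41.4% without it. A pair of libraries stood apart, and the main results for the 10 genes that rest on them are given with and without them. Multipara untreated 1 had the highest level of 43 of 50 other macrophage markers, of 14 of 14 lymphocyte markers and of 15 of 16 monocyte and neutrophil markers. Multipara S-961 4 lay among the virgin libraries on the first principal component of the S-961 libraries, at 27.3, with virgin libraries at 17.1 to 32 and the other multipara libraries at -41.9 to -24.8. Its *Mki67* level was 3.93 CPM, near the 3.04 to 13.9 of virgin libraries and under the 43.5 to 93.9 of the other multipara libraries. The 15 cell cycle genes summed to 254 to 586 CPM in multipara S-961 1 to 3 and to 71.4 to 87.2 CPM in the 3 virgin libraries and multipara S-961 4, so that the 7 S-961 libraries fell into 3 with high and 4 with low cell cycle genes, where the labels give 3 virgin and 4 multipara libraries. Whether labels of S-961 libraries were exchanged was not tested. Libraries were used as labelled, and the direction of each parity comparison with S-961, and the assignment of an S-961 effect to virgin or multipara islets, rest on these labels.

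Per kilobase of exon, *C1qa* and *Lyz2* were the most abundant of the 10 genes, with mean levels of 58.7 and 57.4 CPM per kb over 11 libraries. Without multipara untreated 1, where *Lyz2* was at 386 CPM per kb, these means were 53.1 and 24.5 CPM per kb. *Csf1r* at 3.52, *Cd68* at 3.22, *Csf2rb* at 2.13, *Adgre1* at 1.79 and *Itgax* at 1.47 CPM per kb formed a middle range, in which the libraries of neighbouring genes overlapped. The lowest were *Csf2rb2* at 0.636, *Mrc1* at 0.283 and *Spic* at 0.161 CPM per kb. Among the 50 other macrophage markers, 46 reached 1 CPM in at least 1 library and none was at 0 throughout. *Mrc1* had its highest level in multipara S-961 3 and *Csf2rb* in virgin S-961 3, while the other 8 were highest in multipara untreated 1.

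**Figure D1:**
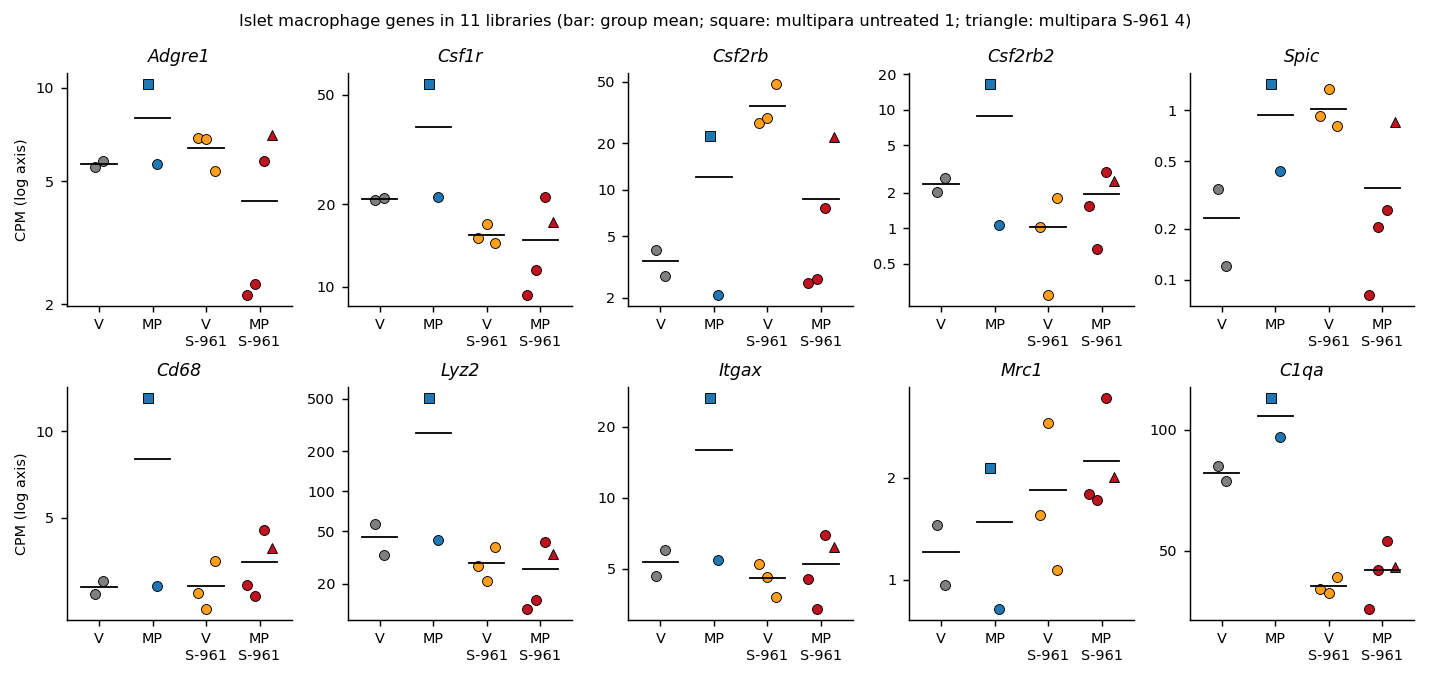
Level of each macrophage gene in CPM (log axis) in the 11 libraries, in virgin (V) and multipara (MP) islets without and with S-961, where each point is a library and the bar is the group mean. *C1qa* lay at 35.8 to 52.8 CPM in the 7 S-961 libraries and at 74.4 to 120 CPM in the 4 untreated ones, and the square (multipara untreated 1) was the top library for 8 of the 10 genes.

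*C1qa* encodes a chain of C1q, the recognition part of the classical complement pathway, and lies on chromosome 4 (GRCm38, 136895917 to 136898803, minus strand). Its level was 81.2 and 74.4 CPM in untreated virgin libraries and 40.1, 39.3 and 42.9 CPM in virgin libraries with S-961. In multipara islets it was 120 and 95.6 CPM without treatment and 35.8, 44.7, 52.8 and 45.5 CPM with S-961. Treated and untreated libraries did not overlap in either parity group, and all 7 treated libraries lay below all 4 untreated ones. *C1qa* fell with S-961 by 0.93 on the log2 scale in virgin islets (SE 0.16, adjusted p = 0.00145, edgeR quasi-likelihood test with Benjamini-Hochberg adjustment over all genes) and by 1.27 in multipara islets (SE 0.15, adjusted p = 0.000213). The group means were 77.8 ± 4.79 (SD, n = 2) and 40.8 ± 1.86 CPM (SD, n = 3) in virgin islets and 108 ± 16.9 (SD, n = 2) and 44.7 ± 6.98 CPM (SD, n = 4) in multipara islets. The effects in the 2 parity groups differed by -0.33 (95% interval -0.82 to 0.15, adjusted p = 0.831). Without multipara untreated 1 the multipara effect was -1.09 (adjusted p = 0.00373), and *C1qa* passed the test under each of the 11 alternatives run in virgin islets and of the 13 run in multipara islets. *C1qb* and *C1qc*, which encode the other chains of C1q, had log2 fold changes of -0.97 (adjusted p = 0.0848) and -0.73 (adjusted p = 0.164) in virgin islets. In multipara islets both fell, by 1.87 (adjusted p = 0.00335) and 1.76 (adjusted p = 0.00343), and neither passed without multipara untreated 1.

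*Csf2rb* and *Csf2rb2* are the common β chain of the GM-CSF, interleukin-3 and interleukin-5 receptors and its mouse-specific, interleukin-3-restricted relative. They lie next to each other on chromosome 15 (GRCm38), *Csf2rb* at 78325752 to 78353847 on the plus strand and *Csf2rb2* at 78282507 to 78305721 on the minus strand. Their coding sequences were 95.2% identical over 2631 aligned bases. Windows of 50 bases were taken from the whole transcript, with its untranslated ends. Of these, 18.9% for *Csf2rb* and 19% for *Csf2rb2* also occurred in a transcript of the other gene, so that a read there could be assigned to either. The first 150 coding bases are shown to make this overlap visible, 5′ to 3′, with the 6 bases that differ in capitals.
Csf2rb: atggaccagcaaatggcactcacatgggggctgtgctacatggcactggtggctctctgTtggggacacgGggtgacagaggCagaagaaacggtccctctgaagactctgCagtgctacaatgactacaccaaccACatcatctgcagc
Csf2rb2: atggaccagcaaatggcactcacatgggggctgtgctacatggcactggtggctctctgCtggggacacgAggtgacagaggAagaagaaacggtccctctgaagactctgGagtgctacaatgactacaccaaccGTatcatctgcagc

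*Csf2rb* was highest in virgin islets with S-961. It was at 26.9, 29.3 and 48.4 CPM in virgin libraries with S-961, against 4.09 and 2.78 CPM in untreated virgin libraries. It rose by 3.34 on the log2 scale with S-961 in virgin islets (10.1-fold, SE 1.10, 95% interval 0.91 to 5.77, adjusted p = 0.0353), and the groups did not overlap. The call rested on few libraries: leaving out any of the 5 virgin libraries gave log2 fold changes of 3.03 to 3.65 and adjusted p-values of 0.0574 to 0.196. When only these 5 libraries were fitted, so that multipara libraries did not add to the spread, the value was 3.36 with an adjusted p of 0.000169. In multipara libraries *Csf2rb* was at 2.49, 2.65, 7.64 and 21.8 CPM with S-961 and at 22.2 and 2.08 CPM without it. The highest value of each of these groups came from multipara S-961 4 and multipara untreated 1. The multipara effect of S-961 was -0.51 (SE 0.89, adjusted p = 0.673), and 2.05 (adjusted p = 0.261) without multipara untreated 1.

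The near-identical *Csf2rb2* did not pass the test. It was at 1.02, 0.272 and 1.81 CPM in virgin libraries with S-961 and at 2.03 and 2.66 CPM in untreated virgin libraries (log2 fold change -1.18, SE 0.97, adjusted p = 0.370), with counts of 9 to 66 reads. The ratio of *Csf2rb* to *Csf2rb2* was 26.4, 108 and 26.7 in virgin libraries with S-961. It was 1.61, 3.96, 2.56 and 8.69 in multipara libraries with S-961 and 1.05 to 2.02 in the 4 untreated libraries. With the counts of both genes summed before the fit, the virgin effect was 2.63 (adjusted p = 0.0646). Relative to *Csf1r*, *Csf2rb* was at 1.8, 1.73 and 3.36 in virgin libraries with S-961 and at 0.267, 0.23, 0.358 and 1.27 in multipara libraries with S-961, and untreated libraries lay at 0.0976 to 0.405. These ratios were taken after the levels had been seen and were not tested.

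**Figure D2:**
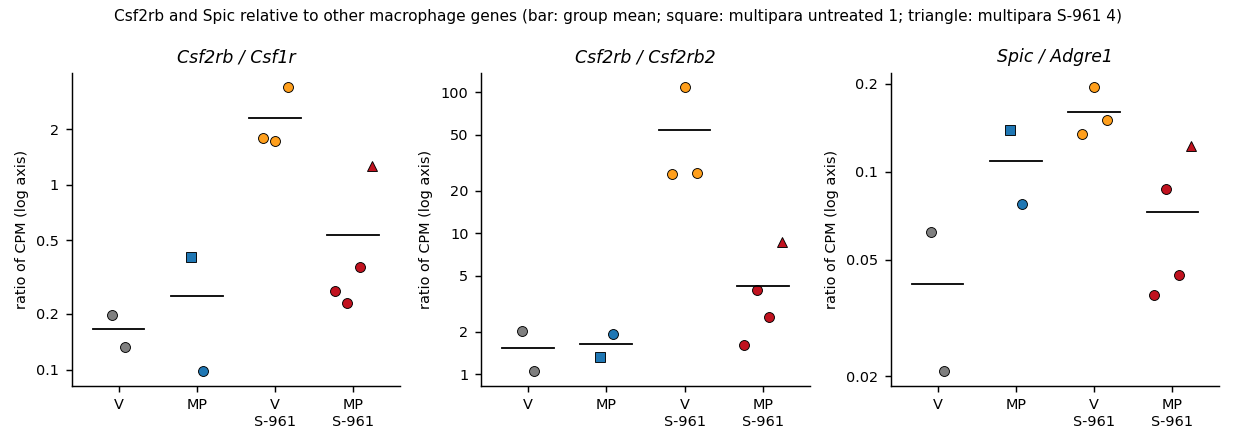
Ratios of *Csf2rb* to *Csf1r*, *Csf2rb* to *Csf2rb2* and *Spic* to *Adgre1* (CPM over CPM, log axis) in each library, by group, with bars at the group means. The 3 virgin S-961 libraries had *Csf2rb* to *Csf1r* ratios of 1.73 to 3.36, above all other libraries, of which multipara S-961 4 (triangle) was the next at 1.27.

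*Spic* encodes a transcription factor related to PU.1 that is known from iron-recycling macrophages, and lies on chromosome 10 (GRCm38, 88674772 to 88685015, minus strand). It was the least abundant of the 10 genes, with 3 to 44 reads per library. Its levels were 0.927, 1.33 and 0.809 CPM in virgin libraries with S-961 and 0.344 and 0.121 CPM in untreated virgin libraries, so that these groups did not overlap. The log2 fold change was 2.11 (SE 0.94, adjusted p = 0.104), and 2.13 (adjusted p = 0.0155) when only these 5 libraries were fitted. In multipara libraries *Spic* was at 0.0813, 0.204, 0.257 and 0.857 CPM with S-961 and at 1.43 and 0.441 CPM without it (log2 fold change -1.44, SE 0.79, adjusted p = 0.174). This effect was -0.34 (adjusted p = 0.854) without multipara untreated 1 and -2.36 (adjusted p = 0.0242) without multipara S-961 4. As for *Csf2rb*, multipara S-961 4 and multipara untreated 1 held the highest value of their groups. Relative to *Adgre1*, *Spic* was at 0.135 to 0.194 in virgin libraries with S-961, at 0.122 in multipara S-961 4, and at 0.038 to 0.0875 in the other multipara libraries with S-961. It was at 0.139 in multipara untreated 1, inside the range of the virgin S-961 libraries, and at 0.0208 to 0.0778 in the other untreated libraries.

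With S-961 in virgin islets, 2 of the 10 genes passed the test, *Csf2rb* upwards and *C1qa* downwards, beside 36.5% of the 17996 genes tested. Groups did not overlap for 5 of the 10 genes, beside 68.3% of all genes. Besides *Csf2rb*, *C1qa* and *Spic* these were *Csf1r* and *Csf2rb2*. *Csf1r*, the M-CSF receptor, on chromosome 18 (GRCm38, 61100598 to 61132149, plus strand), was at 15, 16.9 and 14.4 CPM with S-961 and at 20.7 and 21 CPM without it (log2 fold change -0.43, SE 0.38, adjusted p = 0.408). Its exons overlap those of *Hmgxb3* on the opposite strand, and the sources do not state whether counting used the strand. The median log2 fold change of the 10 genes was -0.11, beside -0.04 over all genes. In the fit of the 5 virgin libraries alone, 4 of the 10 genes passed, *Csf2rb* and *Spic* upwards and *C1qa* and *Csf1r* downwards, beside 51.2% of genes. DESeq2 called 2 of the 10 genes, *Csf2rb* and *C1qa*, beside 39.7% of genes.

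With S-961 in multipara islets, 4 of the 10 genes passed the test, all of them lower, beside 37.6% of all genes in either direction and 19.4% lower. They were *C1qa*, *Lyz2*, *Itgax* and *Csf1r*. *Lyz2*, the lysozyme of macrophages and neutrophils, on chromosome 10 (GRCm38, 117277331 to 117282321, minus strand), was at 508 and 43.1 CPM in untreated libraries and at 12.9, 15, 41.4 and 33.5 CPM with S-961. It fell by 3.42 on the log2 scale (10.7-fold, SE 0.72, adjusted p = 0.00449). *Itgax*, the integrin chain CD11c of dendritic cells and islet macrophages, was at 26.6 and 5.48 CPM without and at 4.53, 3.38, 6.95 and 6.21 CPM with S-961, a fall by 1.61 (SE 0.47, adjusted p = 0.0209) between overlapping groups. *Csf1r* was at 54.8 and 21.3 CPM without and at 9.33, 11.5, 21.3 and 17.2 CPM with S-961, a fall by 1.36 (SE 0.35, adjusted p = 0.0120), again between overlapping groups. Groups did not overlap for 2 of the 10 genes, *C1qa* and *Lyz2*, beside 49% of all genes.

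These falls depended on multipara untreated 1, except that of *C1qa*. Without it, 1 of the 10 genes passed, *C1qa*, beside 19.2% of genes. *Lyz2* was then at -0.74 (adjusted p = 0.376), *Csf1r* at -0.52 (adjusted p = 0.324) and *Itgax* at -0.06 (adjusted p = 0.933), and the median over the 10 genes moved from -1.31 to -0.20, beside 0.03 over all genes in the complete data. Without multipara S-961 4, 6 of the 10 genes passed, with *Adgre1* and *Spic* added, beside 35.8% of genes, and in the fit of the 6 multipara libraries alone 2 passed, *C1qa* and *Lyz2*, beside 25.4% of genes. DESeq2 called 6 of the 10, adding *Csf2rb2* (adjusted p = 0.0326) and *Cd68* (adjusted p = 0.0371), beside 41.1% of genes. In multipara untreated 1 the monocyte and neutrophil list summed to 256 CPM, with 4.38 to 65.4 CPM in the other libraries, and the lymphocyte list to 1747 CPM, with 48.3 to 1268 CPM in the others. The part of these cells in the macrophage gene levels was not tested.

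**Figure D3:**
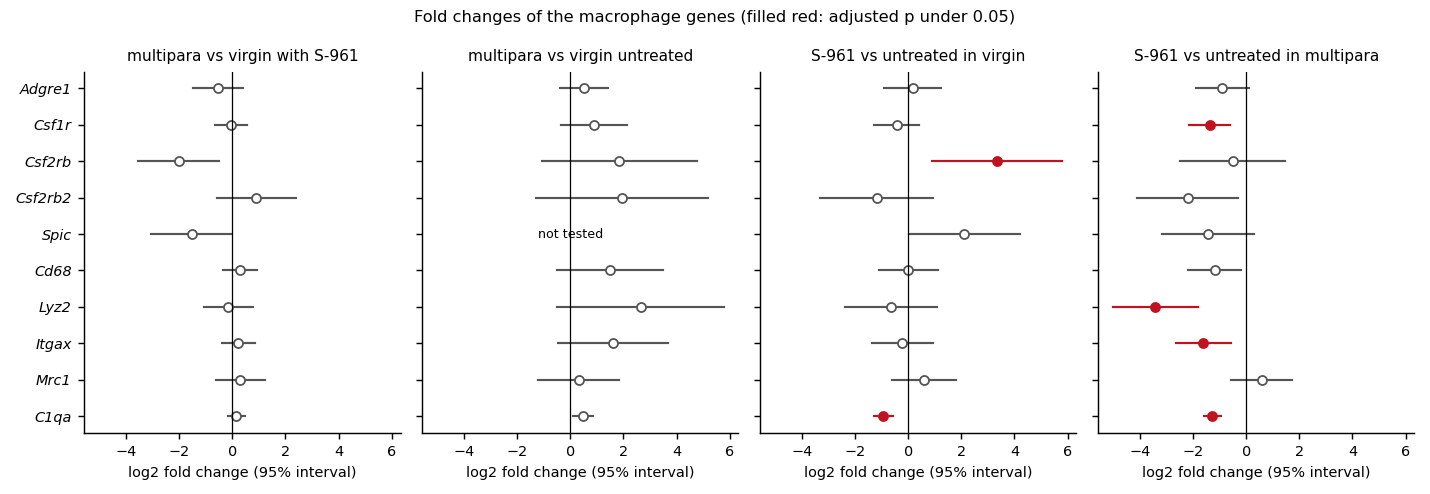
Log2 fold change of each macrophage gene with its 95% interval in 4 comparisons, with filled red points where the adjusted p was under 0.05. *Csf2rb* (3.34) and *C1qa* (-0.93) passed in virgin islets, *C1qa* (-1.27), *Csf1r* (-1.36), *Itgax* (-1.61) and *Lyz2* (-3.42) in multipara islets, and none between multipara and virgin islets.

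Whether multiparity itself was accompanied by other macrophage gene levels was asked first in untreated islets. All 9 genes that could be tested had positive log2 fold changes in multipara libraries, from 0.32 (*Mrc1*) to 2.65 (*Lyz2*), and none passed the test (0% of 15812 genes passed). The median of the 9 genes was 1.51, beside 0.02 over all genes. *Spic* had too few reads to be tested here. *C1qa* had an unadjusted p under 0.05 (0.0266, log2 fold change 0.48), as did 889 of all genes, and DESeq2 called none of the 9 genes and 56 of all genes. Groups did not overlap for 3 of the 10 genes, *C1qa*, *Csf1r* and *Spic*, beside 36% of all genes.

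The positive values depended on 1 of the 2 multipara libraries. In multipara untreated 2, *Lyz2* was at 43.1 CPM between the virgin libraries at 56.7 and 33.2 CPM, and *Adgre1*, *Cd68* and *Itgax* also lay between the virgin values. The median of the 9 genes was -0.02 without multipara untreated 1, the fold changes ran from -1.15 (*Csf2rb2*) to 0.28 (*C1qa*), and none passed, beside 0.326% of genes. Without multipara untreated 2, 8 of the 10 genes passed, all upwards, beside 10.3% of genes, in a fit in which the lone multipara library was assumed to vary like the virgin libraries. *Lyz1*, a lysozyme gene 95.1% identical to *Lyz2* over 447 coding bases, was at 32.8 CPM in multipara untreated 1 and at 0.0291 to 1.13 CPM elsewhere. With the counts of *Lyz1* and *Lyz2* summed, the untreated effect was 2.72 (adjusted p = 0.719). Of the windows of 50 bases of the whole transcript, 15.4% for *Lyz2* and 16.1% for *Lyz1* also occurred in a transcript of the other gene. The first 90 coding bases of this pair are shown with the 7 bases that differ in capitals. This stretch shows the likeness of the pair but holds no identical run of 50 bases.
Lyz2: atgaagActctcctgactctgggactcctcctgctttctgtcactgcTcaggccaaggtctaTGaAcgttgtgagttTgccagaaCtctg
Lyz1: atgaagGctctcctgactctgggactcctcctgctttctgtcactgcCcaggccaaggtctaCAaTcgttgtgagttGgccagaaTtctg

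Between multipara and virgin islets with S-961, none of the 10 genes passed the edgeR test (0% of 16784 genes), and DESeq2 called none of the 10 and 369 of all genes. Before adjustment, 2 of the 10, *Csf2rb* and *Spic*, were under 0.05 in edgeR, as were 1630 of all genes. *Csf2rb* was 4.02-fold lower in multipara libraries (log2 fold change -2.01, SE 0.68, 95% interval -3.53 to -0.48, adjusted p = 0.370). It was the 1 gene of the 10 without overlap between groups, beside 8.87% of all genes. *Spic* had a log2 fold change of -1.53 (SE 0.67, adjusted p = 0.509). The other 8 genes lay between -0.54 (*Adgre1*) and 0.91 (*Csf2rb2*), and the median of the 10 was 0.06, beside 0.00 over all genes.

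The *Csf2rb* value depended on multipara S-961 4 and on the labels of the S-961 libraries. Without it *Csf2rb* was 8.01-fold lower in multipara libraries (log2 fold change -3.00, SE 0.47, adjusted p = 0.0150) and was the 1 of the 10 genes that passed, beside 3.16% of genes. *Spic* was then at -2.45 (SE 0.53, adjusted p = 0.0530) and *Adgre1*, the F4/80 antigen of mature macrophages, at -0.87 (adjusted p = 0.318). The other 7 genes stayed between -0.30 and 0.77. In the same fit 14 of 15 cell cycle genes (median 3.63) and 7 of 12 stromal genes (median 1.42) were called higher in multipara libraries, and their part in the *Csf2rb* result was not tested. *C1qa* was at 0.15 (95% interval -0.17 to 0.48) with all 7 libraries.

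**Figure D4:**
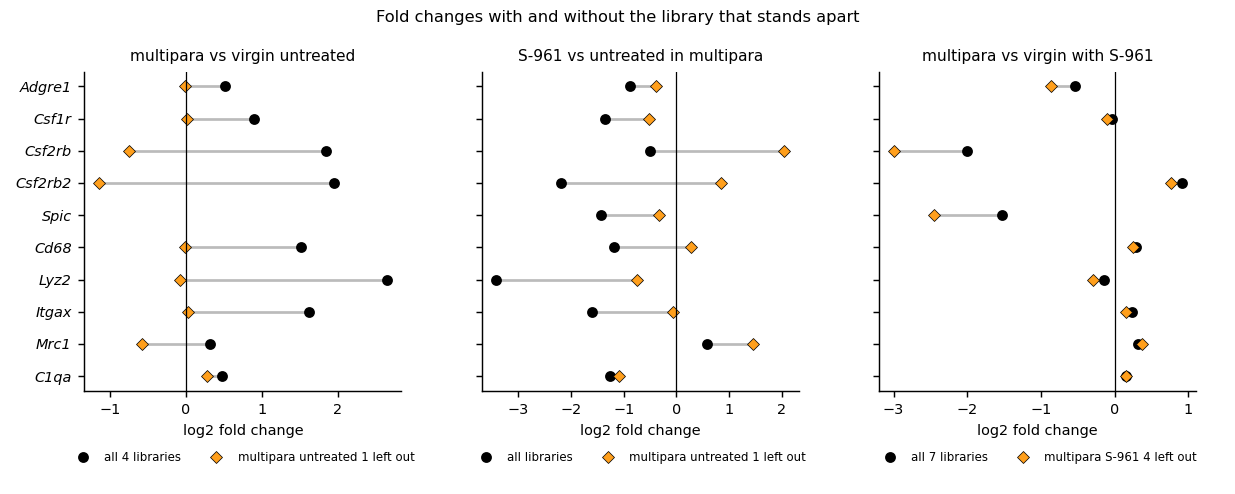
Log2 fold changes of the macrophage genes with all libraries (black) and with the library that stands apart left out (orange) in 3 comparisons. Without multipara untreated 1 the untreated values ran from -1.15 to 0.28, with a median of -0.02 in place of 1.51, and without multipara S-961 4 *Csf2rb* moved from -2.01 to -3.00.

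The test of the difference between the S-961 effects in multipara and virgin islets called none of the 10 genes (0% of 17996 genes by edgeR). It had an unadjusted p under 0.05 for 3 of the 10 and for 1179 of all genes, and DESeq2 called none of the 10 and 81 of all genes. The values were -3.85 for *Csf2rb* (SE 1.37, adjusted p = 0.704), -3.54 for *Spic* (SE 1.23, adjusted p = 0.704) and -2.78 for *Lyz2* (SE 1.10, adjusted p = 0.721). All 10 values were negative, with a median of -1.13 beside -0.04 over all genes. That median was -0.10 without multipara untreated 1, *Csf2rb* was at -1.28 and *Spic* at -2.45, and none passed (0% of genes). Without multipara S-961 4 *Csf2rb* was at -4.86 and *Spic* at -4.47, and none passed, beside 0.252% of genes.

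*Adgre1*, *Cd68* and *Mrc1* were not called by edgeR in any comparison with all libraries. With multipara S-961 4 left out, *Adgre1* fell with S-961 in multipara islets by 1.22 (adjusted p = 0.0463). *Adgre1*, on chromosome 17 (GRCm38, 57358691 to 57483527, plus strand), ranged from 2.14 CPM in multipara S-961 1 to 10.3 CPM in multipara untreated 1. *Cd68*, a lysosomal glycoprotein, on chromosome 11 (69664213 to 69666153, minus strand), was at 2.41 to 4.53 CPM in every library but multipara untreated 1, where it was at 13.1 CPM. *Mrc1*, the mannose receptor CD206 of alternatively activated macrophages, on chromosome 2 (14229392 to 14332057, plus strand), ranged from 0.819 to 3.45 CPM with 13 to 134 reads. *Itgax* lies on chromosome 7 (128129547 to 128150657, plus strand) and ranged from 3.38 to 6.95 CPM outside multipara untreated 1. Changes in the number of macrophages, in a transcript per macrophage and in the same transcript in other cells cannot be told apart in these bulk samples.

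Among the ligands and other chains of the CSF receptor family, 6 of 10 listed genes could be tested across treatments. In virgin islets 1 of them rose with S-961 and 2 fell, beside 36.5% of all genes called in either direction. *Csf2ra*, the ligand-binding chain that pairs with *Csf2rb* in the GM-CSF receptor, was at 41.2, 39.1 and 42.7 CPM with S-961 and at 14.3 and 18.9 CPM without it, and rose by 1.30 (SE 0.23, adjusted p = 0.00161). The ligands of *Csf1r* moved the other way: *Csf1*, which encodes M-CSF, was at 6.18, 5.46 and 5.86 CPM with S-961 and at 13.5 and 13.9 CPM without it, and fell by 1.24 (SE 0.39, adjusted p = 0.0305). *Il34* was at 0.543 to 0.804 CPM with S-961 and at 1.99 and 2.1 CPM without it, and fell by 1.69 (SE 0.38, adjusted p = 0.00626). In multipara islets *Csf2ra* rose by 0.59 (SE 0.21, adjusted p = 0.0476), a call that was lost without multipara untreated 1 (0.82, adjusted p = 0.0632) and without multipara S-961 4 (0.47, adjusted p = 0.0916), while *Csf1* (-0.85, adjusted p = 0.0891) and *Il34* (-0.79, adjusted p = 0.0990) did not pass. *Il3ra* was at 7.82 to 12.3 CPM in all libraries and passed no test, and *Csf3r*, the G-CSF receptor, was highest in multipara untreated 1 at 2.9 CPM. Transcripts of the ligands of *Csf2rb* were near or at 0: *Csf2* (GM-CSF) was detected in 1 library at 0.0515 CPM, *Il3* in none, and *Il5* in 4 at up to 0.124 CPM.

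Of 21 genes for signalling from these receptors, 1 rose and 2 fell with S-961 in virgin islets, and 1 rose and 11 fell in multipara islets, beside 36.5% and 37.6% of all genes called in either direction. *Socs3*, a feedback inhibitor of cytokine signalling, rose in virgin islets (1.37, adjusted p = 0.0251), and *Tyrobp*, an adaptor of myeloid receptors, fell in virgin (-1.34, adjusted p = 0.0449) and multipara islets (-2.75, adjusted p = 0.000911). With multipara untreated 1 left out, 1 rose and 1 fell in multipara islets, *Socs3* and *Tyrobp*, beside 19.2% of all genes.

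Of the 14 myeloid transcription factor genes tested, 2 rose and 2 fell with S-961 in virgin islets, and 2 rose and 5 fell in multipara islets, beside the same shares of all genes (36.5% and 37.6%). *Cebpb* rose in both, from 6.43 and 9.03 to 26.4 to 29.2 CPM in virgin islets (1.83, adjusted p = 0.000644) and by 2.26 in multipara islets (adjusted p = 0.000226). *Bach1*, a haem-regulated repressor that is known to act upstream of *Spic*, also rose in both (0.78, adjusted p = 0.0216, and 0.85, adjusted p = 0.0131). *Spi1*, which encodes PU.1, was at 1.16 to 3.17 CPM in 10 libraries and at 14.1 CPM in multipara untreated 1, and had a log2 fold change of -0.17 in virgin islets (adjusted p = 0.860) and a fall by 2.04 in multipara islets (adjusted p = 0.0168). *Irf8* was likewise at 2.53 to 5.89 CPM in 10 libraries and at 45.2 CPM in multipara untreated 1. Without that library 1 rose and 1 fell in multipara islets, *Cebpb* and *Nr1h3*, so that *Bach1* and *Spi1* no longer passed there.

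Of the other macrophage markers tested, 1 of 49 rose and 6 fell with S-961 in virgin islets, with a median of -0.72, and none rose and 33 fell in multipara islets, with a median of -1.89. Of all genes, 36.5% were called in virgin islets in either direction and 19.4% were called lower in multipara islets. *Lilrb4a*, an inhibitory receptor, rose in virgin islets by 2.83 (adjusted p = 0.00524). *Lyve1*, a hyaluronan receptor of vessel-associated macrophages and lymphatic endothelium, fell there by 2.50 (adjusted p = 0.00415), and the scavenger receptor gene *Marco* fell by 3.54 (adjusted p = 0.0468). *Marco* was at 4.09 CPM in virgin untreated 1, at 0.564 CPM in virgin untreated 2 and at 0 to 0.392 CPM in virgin libraries with S-961. *Lst1* fell in virgin (-2.50, adjusted p = 0.00619) and multipara islets (-3.95, adjusted p = 0.000373), and so did *Aif1* (-1.85, adjusted p = 0.0399, and -3.61, adjusted p = 0.00106). With multipara untreated 1 left out, 3 of the 49 fell in multipara islets, *Aif1*, *Lst1* and *Tyrobp*, and the median was -0.57. In untreated islets the median of this list was 1.47 in multipara against virgin libraries, and -0.02 without multipara untreated 1.

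Of 11 genes for haem and iron handling, 3 fell with S-961 in virgin islets and 7 in multipara islets, beside 36.5% and 37.6% of all genes called in either direction. The ferritin genes *Ftl1* (-0.95, adjusted p = 0.00249) and *Fth1* (-0.76, adjusted p = 0.0164) and the haem transporter *Slc48a1* (-0.58, adjusted p = 0.00381) fell in virgin islets, and these genes are also expressed by other islet cells. *Hmox1*, which breaks down haem, fell in multipara islets (-1.73, adjusted p = 0.0137). When multipara untreated 1 was left out, 4 fell in multipara islets, and *Hmox1* was not among them. Among 14 complement genes, none passed in virgin islets, and 3 fell in multipara islets, *Cfb*, *C1qb* and *C1qc*. None of these 3 passed without multipara untreated 1. Among 17 inflammatory cytokine genes, 1 rose and 1 fell in virgin islets and 1 rose and 4 fell in multipara islets. *Il6* rose in both, at up to 0.849 CPM, and no gene of this list passed in multipara islets without multipara untreated 1. Of 14 alternative activation genes tested, *Arg1* fell in virgin islets (-1.35, adjusted p = 0.00161) and none passed in multipara islets.

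Markers of other cells were compared with and without S-961 as well. The counts below stand beside 36.5% of all genes called in virgin and 37.6% in multipara islets, in either direction. The 16 acinar genes summed to 132 to 216 CPM in untreated libraries and to 2105 to 14085 CPM with S-961, and 15 of the 16 rose in virgin and in multipara islets. Of 9 alpha, delta and PP cell genes, 8 fell in virgin islets, and 2 rose and 3 fell in multipara islets. Of 12 endothelial genes 4 fell in virgin and 2 in multipara islets, and of 12 stromal genes 2 fell in virgin and 4 rose in multipara islets. Of 10 duct genes, 1 rose and 2 fell in virgin islets and 2 rose and 2 fell in multipara islets, and of 10 β cell genes 3 rose and 3 fell in virgin islets and 4 rose and 3 fell in multipara islets. Of 10 dendritic cell genes 2 fell in virgin and 6 in multipara islets, and 2 fell in multipara islets without multipara untreated 1. Lymphocyte genes fell for 1 of 14 in virgin and 9 of 14 in multipara islets, and monocyte and neutrophil genes for 2 of 13 and 7 of 13. *S100a9* and *Ltf*, the 2 in virgin islets, were at 15.5 and 14.6 CPM in virgin untreated 1. They were at 0.0806 and 0.242 CPM in virgin untreated 2, and at 0 to 0.155 CPM in virgin libraries with S-961. Monocyte and neutrophil genes summed to 65.4 CPM in virgin untreated 1 and 6.77 CPM in virgin untreated 2, and lymphocyte genes to 1268 and 132 CPM. Red cell genes rose for 1 of 7 in virgin and fell for 7 of 7 in multipara islets, with sums of 56 to 733 CPM with S-961 and 158 to 2423 CPM without it. None of 15 cell cycle genes passed in either parity group with all libraries. In multipara islets 8 of the 15 rose without multipara S-961 4 (median 1.98), and 2 rose without multipara untreated 1 (*Cenpf* and *Bub1*, median 4.34). Without multipara untreated 1, none of the lymphocyte, monocyte and neutrophil genes passed in multipara islets, and 2 of the red cell genes fell. The part of these cells in the *C1qa*, *Csf2rb* and *Lyz2* results was not tested.

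The genes whose levels most resembled the mean of the 10 genes over the 11 libraries, by Pearson correlation of log2 CPM among 11281 candidates, were *Lyn* (0.97), *Dennd4b* (0.97), *Cybb* (0.96), *Nckap1l* (0.95), *Inpp5d* (0.94), *Irf8* (0.94), *Il10ra* (0.94) and *Rassf5* (0.94). These 11 points include multipara untreated 1, in which the mean log2 level of the 10 genes was 4.38, against 1.72 to 2.89 in the other libraries. Over the same points, the correlation of the other members with *Csf1r* ran from 0.10 for *Mrc1* and 0.21 for *Csf2rb* to 0.95 for *Lyz2*.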

How the data were processed

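Islet RNA-seq libraries of wild type mice were compared by parity and S-961. The deposited values are estimated counts per gene, which the authors made with RSEM after STAR alignment to GRCm38 (mm10), per the submitters' processing notes, with versions and strandedness not given. Gene names and positions came from GENCODE on GRCm38, and coding sequences from the same annotation. Estimated counts were rounded, and 55536 genes in 11 libraries were filtered (filterByExpr, minimum count 10, minimum total 15), TMM-normalized and tested with edgeR 4.0.16 (quasi-likelihood, R 4.3.3), with Benjamini-Hochberg adjustment over all genes and a threshold of 0.05. Parity was compared within each treatment using only the libraries concerned. S-961 effects and their interaction with parity used all 11 libraries, so that comparisons share libraries. Alternatives used DESeq2 1.42.0, other scalings, no filter, a replicate block and left-out libraries. Fits of only the compared libraries, with both doubtful libraries left out, or with near-identical genes summed were chosen after seeing the data. limma 3.58.1, Python 3.11.15, pandas 2.3.3 and matplotlib 3.10.9 were also used. The members and gene lists were chosen with earlier results of these data known. All 10 members were named. From each list, genes called in any comparison could be named, at most the 4 with the largest absolute log2 fold change per comparison, or, where none was called, the 2 with the highest mean CPM, and any tested gene of the CSF receptor and transcription factor lists. Likeness of pattern was ranked among genes averaging 2 or more in log2 CPM, against the mean z-score of the members, and the top 8 were named. *Lyz1* was singled out after its values were seen. Scripts were tested on simulated data with 200 changed genes. A result of the complement list is not reported here.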

Additional observations from a re-analysis of the deposited data

Results flagged for a closer look

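*Mrc1*, the mannose receptor of macrophages, was at 3.45 CPM in multipara S-961 3, against 1.72 to 2.01 CPM in the other multipara libraries with S-961, a gap that was 0.831 of the whole range of the group. Chance flags about 1 in 20 groups of this size in this way. The same library was also the highest of its group for *Csf1r*, *Csf2rb2*, *Cd68*, *Lyz2*, *Itgax* and *C1qa*, without a flag. *Adgre1*, *Csf2rb* and *Spic* were highest in multipara S-961 4. The cause was not tested.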

How the results depend on the processing

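*C1qa* kept its fall with S-961 and its call in both parity groups under every alternative run. Leaving out 1 library at a time gave these ranges. Between multipara and virgin islets with S-961, 0 to 1 genes were called (1 without multipara S-961 4), and log2 fold changes were -0.28 to 0.12 for *Csf1r* and -0.50 to 0.10 for *Lyz2*. In untreated islets 0 to 8 were called (8 without multipara untreated 2), with a median of -0.02 to 2.27, *Adgre1* at -0.02 to 0.87, *Csf2rb* at -0.75 to 2.70, *Csf2rb2* at -1.15 to 2.83, *Cd68* at -0.01 to 2.21, *Lyz2* at -0.08 to 3.51 and *Mrc1* at -0.58 to 0.83. For S-961 in virgin islets 1 was called in each such fit, and *Cd68* was at -0.15 to 0.13. In multipara islets 1 to 6 were called, with a median of -1.89 to -0.20, *Csf2rb* at -1.53 to 2.05, *Csf2rb2* at -3.09 to 0.85 and *Cd68* at -1.89 to 0.28. For the interaction the median was -1.91 to -0.10, with *Csf2rb2* at -1.91 to 2.03, *Cd68* at -1.91 to 0.27, *Itgax* at -2.10 to 0.17 and *Mrc1* at -0.53 to 0.85. With both libraries that stand apart left out, 1 gene was called in multipara islets, with a median of -0.37, *Csf2rb* at 1.04, *Csf2rb2* at 0.69 and *Cd68* at 0.22, and the interaction had a median of -0.17, with *Csf2rb2* at 1.87, *Cd68* at 0.21, *Itgax* at 0.08 and *Mrc1* at 0.90. Fits of only the compared libraries called 4 genes in virgin and 2 in multipara islets. *Cd68* in virgin islets was at -0.02 with normalization without *Ins1* and *Ins2*, and the *Mrc1* interaction was at 0.01 with that normalization and without the filter. The cause of these shifts was not tested.

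The replicate numbers were not taken to pair the libraries. Same-numbered virgin and multipara S-961 libraries correlated at 0.00 to 0.09 in their deviations. With 2 libraries a group, the 0.33 of the untreated pairs is 1 value and leaves pairing undecided there. With the replicate block, 1 of the 10 genes was called between multipara and virgin islets with S-961 (*Csf2rb*, -3.15, adjusted p = 0.00297 by edgeR) and 342 of all genes, where the fit without it called 0, and *Cd68* in virgin islets was at -0.22. Multipara S-961 4 shares its number with no other library, so its block term absorbed it and it added nothing to that parity comparison. The block fit is thus close to leaving that library out, which gave -3.00 for *Csf2rb* (adjusted p = 0.0150 by edgeR). Over the alternatives, all-gene calls ran from 0 to 525 for parity with S-961, 0 to 1738 for parity without it, 3053 to 8500 and 3618 to 7451 for S-961 in virgin and multipara islets, and 0 to 81 for the interaction. *Spic* had 3 to 44 reads per library.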
